A study of Rattus norvegicus with 6 samples.

Results

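Ppara, 4 Cyp4a omega-hydroxylase genes (Cyp4a1, Cyp4a2, Cyp4a3 and Cyp4a8) and 5 acyl-CoA thioesterase genes (Acot1, Acot2, Acot3, Acot4 and Acot12) were followed in rat liver after embolization, the blocking of the vessels that feed a tissue. They were chosen by symbol as the receptor PPARA and fatty acid genes that respond to it, and all 10 were found among the 32623 genes of the table. The tested libraries, GZM, came from tissue embolized with zinc sulfide microspheres, and the control libraries, GM, from tissue embolized with blank microspheres, with 3 libraries in each group. Both groups were therefore embolized, and no untouched liver was compared. The tissue is labelled as liver, with no word on tumour, and all 12 hepatocyte markers were read in every library. No source used here gives strain, sex, age, dose or time after embolization, or says that replicates came from separate animals, and the spread behind each p-value may then be technical.

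PPARA is a nuclear receptor of hepatocytes that is activated by fatty acids and, paired with RXR, raises transcription of genes that burn them. CYP4A enzymes sit in the endoplasmic reticulum and hydroxylate fatty acids at the far (omega) end of the chain, the first step towards dicarboxylic acids that peroxisomes can shorten. Acyl-CoA thioesterases split fatty acyl-CoA into free fatty acid and coenzyme A in cytosol, mitochondria or peroxisomes. Rat liver is the classic tissue in which Cyp4a and Acot genes respond to drugs that activate PPARA.

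The Cyp4a genes lie together in the table's coordinates on chromosome 5, Cyp4a8 (ENSRNOG00000008842) from 133978954 to 134008255, Cyp4a2 (ENSRNOG00000030154) from 134196912 to 134207863, Cyp4a3 (ENSRNOG00000009741) from 134469270 to 134484839 and Cyp4a1 (ENSRNOG00000009597) from 134492756 to 134507154. On chromosome 6, Acot2 (ENSRNOG00000010134) starts at 107460668 and is followed by Acot1 (ENSRNOG00000055221) at 107485249, Acot4 (ENSRNOG00000046864) at 107517668 and Acot3 (ENSRNOG00000053460) at 107531528. Acot12 (ENSRNOG00000061414) lies on chromosome 2 from 20857202 to 20901659 and Ppara (ENSRNOG00000021463) on chromosome 7 from 126619196 to 126681752. RefSeq held the 250 bases before the transcription start of 9 of the 10 genes, Cyp4a1 being the exception. The windows of Cyp4a2, Cyp4a3 and Cyp4a8 are shown because they let the pair of highest level, Cyp4a2 and Cyp4a3, be compared with a more distant neighbour. Capitals mark AGGTCA, the core hexamer that nuclear receptors bind, searched on both strands (TGACCT on the other), and the positions are those of RefSeq's build GRCr8, not of the deposited table.

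Cyp4a2, chr5:134170909-134171158, minus strand: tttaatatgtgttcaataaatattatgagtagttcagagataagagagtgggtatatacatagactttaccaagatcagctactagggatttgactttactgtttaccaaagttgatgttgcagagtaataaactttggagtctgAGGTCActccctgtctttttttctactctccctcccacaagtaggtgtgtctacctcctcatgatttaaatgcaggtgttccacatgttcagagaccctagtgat
Cyp4a3, chr5:134352237-134352486, minus strand: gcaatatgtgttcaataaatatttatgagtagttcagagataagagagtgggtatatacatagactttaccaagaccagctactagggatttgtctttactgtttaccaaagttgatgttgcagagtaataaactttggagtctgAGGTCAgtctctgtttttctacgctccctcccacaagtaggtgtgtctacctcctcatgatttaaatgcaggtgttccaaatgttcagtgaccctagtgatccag
Cyp4a8, chr5:133970227-133970476, minus strand: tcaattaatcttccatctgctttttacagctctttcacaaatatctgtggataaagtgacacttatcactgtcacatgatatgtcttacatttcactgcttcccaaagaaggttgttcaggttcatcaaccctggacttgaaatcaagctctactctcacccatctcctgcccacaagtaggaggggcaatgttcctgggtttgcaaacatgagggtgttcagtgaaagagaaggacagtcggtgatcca

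The Cyp4a2 and Cyp4a3 windows were identical at 236 of 255 alignment columns, or 92.5%, while the other 35 pairs of the 9 windows ran from 36.3% to 56.2%. Both held 1 hexamer, 105 bases before the start. Acot4 and Acot12 also held 1 each, so that 4 of 9 windows had one, against 14.1% of all 33469 RefSeq promoter windows of that length. The hexamers of the near-identical Cyp4a2 and Cyp4a3 windows are not separate cases, and the difference was not tested. The full repeat AGGTCANAGGTCA, the consensus form of the site that PPARA binds with RXR, was in 0 of the 9 windows and in 0.0508% of all. Only exact matches were searched, so looser forms of the site would be missed. These matches describe letters only and show no binding. RefSeq also lists Cyp4a2l1, a protein-coding copy of Cyp4a2, and 2 Cyp4a2 pseudogenes, which are not analysed here. Likeness of the transcripts was not computed. Where copies share exon sequence, reads of Cyp4a2, Cyp4a3 or the Acot cluster could be split between them, and single values within each family are uncertain to that extent.

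Total counts ran from 13443115 to 16073943 in GZM and from 14552885 to 16604067 in GM. In each of the 6 within-group pairs, the counts differed beyond sampling noise (chi-square per degree of freedom from 11.2 to 208.9), so each library was counted as 1 sample. Libraries stood apart within each group. The 12 hepatocyte markers took 11.9%, 11.7% and 11.0% of counts in GZM 1, 2 and 3, against 3.13%, 2.32% and 6.93% in GM 1, 2 and 3, so GM 3 held the most hepatocyte RNA among the controls. GZM 1 had a summed level of 224.3 CPM (counts scaled to library size with TMM factors) for 6 T cell markers, against 81.3 and 97.9 CPM in the other GZM libraries and 237.6 to 462.1 CPM in GM. TMM factors, which rest on most genes being unchanged, were 0.715 to 0.793 in GZM and 1.17 to 1.43 in GM. Scaling to library totals in their place moved the median log2 fold change of all genes by -0.83, so each fold change below is relative to the TMM scale. With library totals rises were smaller and falls larger.

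All 9 tested genes of the 10 were higher in GZM at an adjusted p under 0.05 (edgeR's quasi-likelihood test with Benjamini-Hochberg adjustment over 14298 genes), where 22.2% of all tested genes were called higher, 21.7% lower and thus 44% in either direction. In each of the 9 the lowest GZM library stood above the highest GM library, as it did for 28.4% of tested genes. The median log2 fold change of the 9 was 2.89, against -0.09 over all tested genes. Acot1 fell under the filter on low counts. A gene passes that filter when libraries enough for 1 group reach the minimum, so genes low in GM entered through GZM and the 9 are not a random part of the 10. Without GZM 1 and GM 3 all 9 were again called higher. With library totals 7 were called, and Ppara and Acot3 were not.

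The receptor gene itself showed one of the smaller differences. Ppara was read at 63, 73 and 83 counts in GZM 1, 2 and 3, or 6.32, 6.88 and 6.52 CPM, against 50, 62 and 58 counts in GM 1, 2 and 3, or 2.41, 2.64 and 2.98 CPM. Replicates of each group lay close together, with a coefficient of variation of 4.35% in GZM and 10.7% in GM, and the groups were well separated on this scale. The fold change was 2.45 (log2 1.29 ± 0.25 SE, 95% interval 0.71 to 1.88, edgeR adjusted p = 0.00615). The call depends on the scaling: with library totals the log2 fold change was 0.47 (edgeR adjusted p = 0.15).

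**Figure D1:**
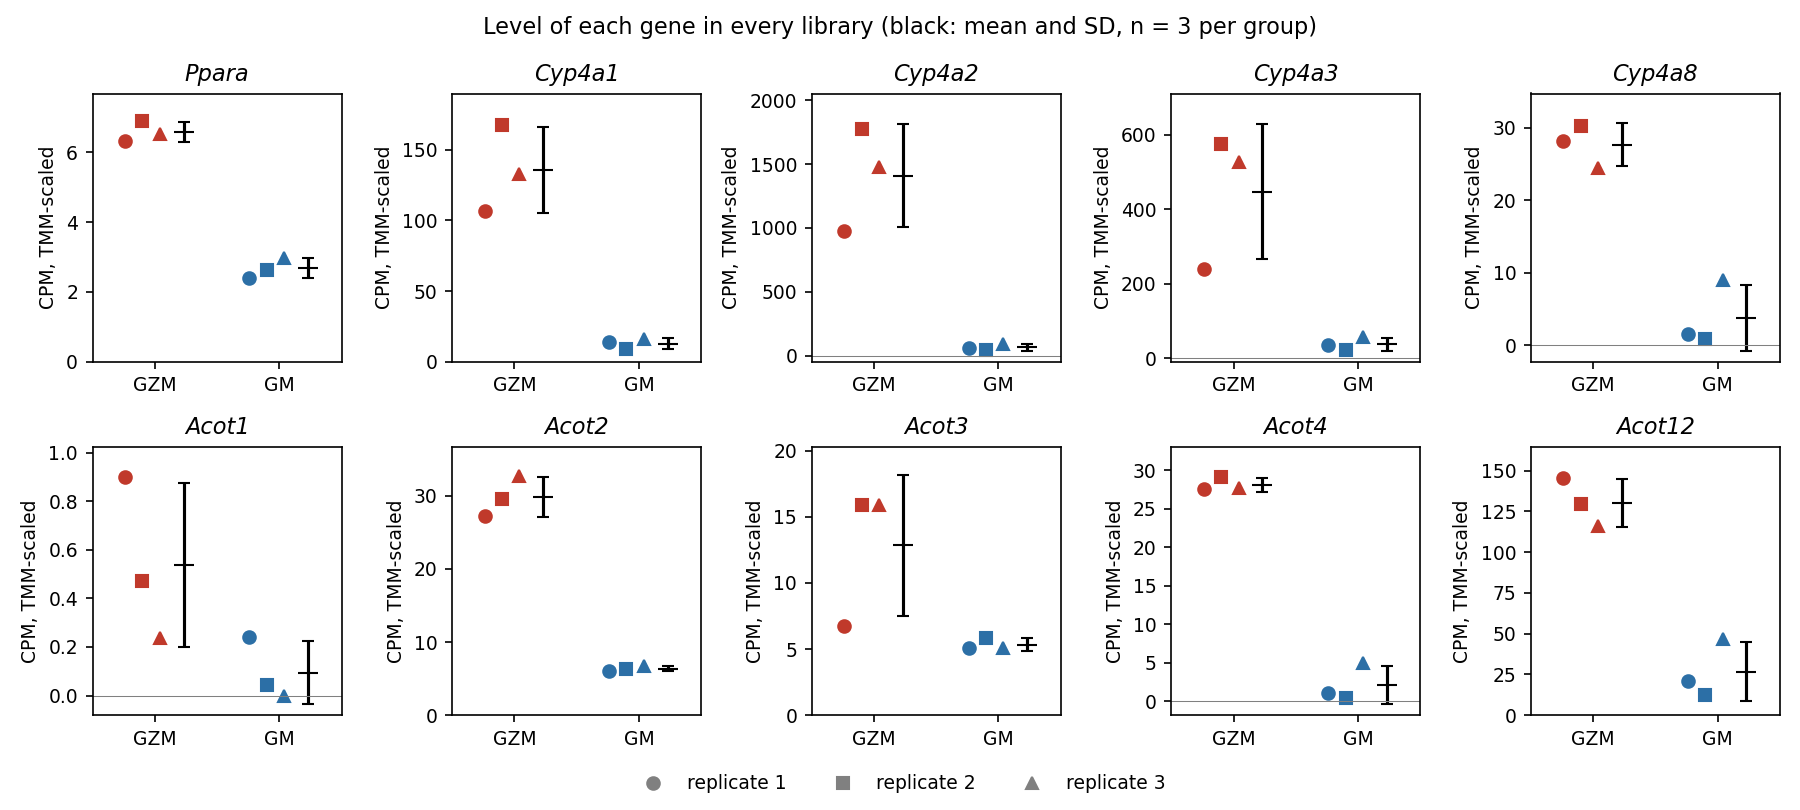
Each panel plots the TMM-scaled CPM of 1 gene in the 3 GZM libraries (left, red) and the 3 GM libraries (right, blue), with replicate number by symbol and mean ± SD in black. GZM 1 is the lowest GZM library for every gene but Cyp4a8, Acot1 and Acot12, though narrowly for Ppara and Acot4. GM 3 is the highest GM library for every gene but Acot1 and Acot3.

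Among the omega-hydroxylases, Cyp4a2, an abundant liver and kidney form in rats, was highest and differed most. It stood at 976.8, 1774 and 1474 CPM in GZM 1, 2 and 3, against 61.8, 42.3 and 91.7 CPM in GM 1, 2 and 3. The lowest GZM library was thus more than 10 times the highest GM library. The means, 1408 CPM (SD 402.7, n = 3) in GZM and 65.3 CPM (SD 24.9, n = 3) in GM, gave a 21.6-fold difference (log2 fold change 4.43 ± 0.40 SE, 95% interval 3.51 to 5.36, edgeR adjusted p = 0.00185). That was the 16th largest rise among the tested genes. By deposited FPKM, Cyp4a2 ranked 219, 107 and 111 of all 32623 genes in GZM 1, 2 and 3, and 2195, 3557 and 1598 in GM 1, 2 and 3. Without GZM 1 and GM 3 its log2 fold change was 5.04.

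Cyp4a3, its close neighbour in sequence, had 240.1, 574.1 and 527.1 CPM in GZM 1, 2 and 3, against 34.9, 22.4 and 56.7 CPM in GM 1, 2 and 3. GZM 1 stood well below the other GZM libraries, yet above all GM libraries. It rose 11.8-fold (log2 fold change 3.56 ± 0.46 SE, 95% interval 2.50 to 4.62, edgeR adjusted p = 0.00236), with 4.34 on leaving out GZM 1 and GM 3. Cyp4a1, the lauric acid hydroxylase first described as the clofibrate-induced form of rat liver, had 107.0, 167.7 and 132.5 CPM in GZM 1, 2 and 3, against 13.7, 9.11 and 16.2 CPM in GM 1, 2 and 3. Cyp4a1 rose 10.4-fold with the smallest error of the family (log2 fold change 3.38 ± 0.27 SE, 95% interval 2.75 to 4.02, edgeR adjusted p = 0.00185).

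Cyp4a8, the fourth hydroxylase, was less abundant and varied in another way. It had 28.2, 30.3 and 24.5 CPM in GZM 1, 2 and 3, against 1.49, 0.85 and 8.95 CPM in GM 1, 2 and 3. GZM 1 did not stand apart here, and GM 3 was 10.5 times the lowest GM library. The rise was 7.40-fold (log2 fold change 2.89 ± 0.76 SE, 95% interval 1.13 to 4.65, edgeR adjusted p = 0.018). It did not pass without GZM 2 (edgeR adjusted p = 0.0524) or without GM 1 (edgeR adjusted p = 0.0583), and without GM 3 the log2 fold change was 4.60.

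**Figure D2:**
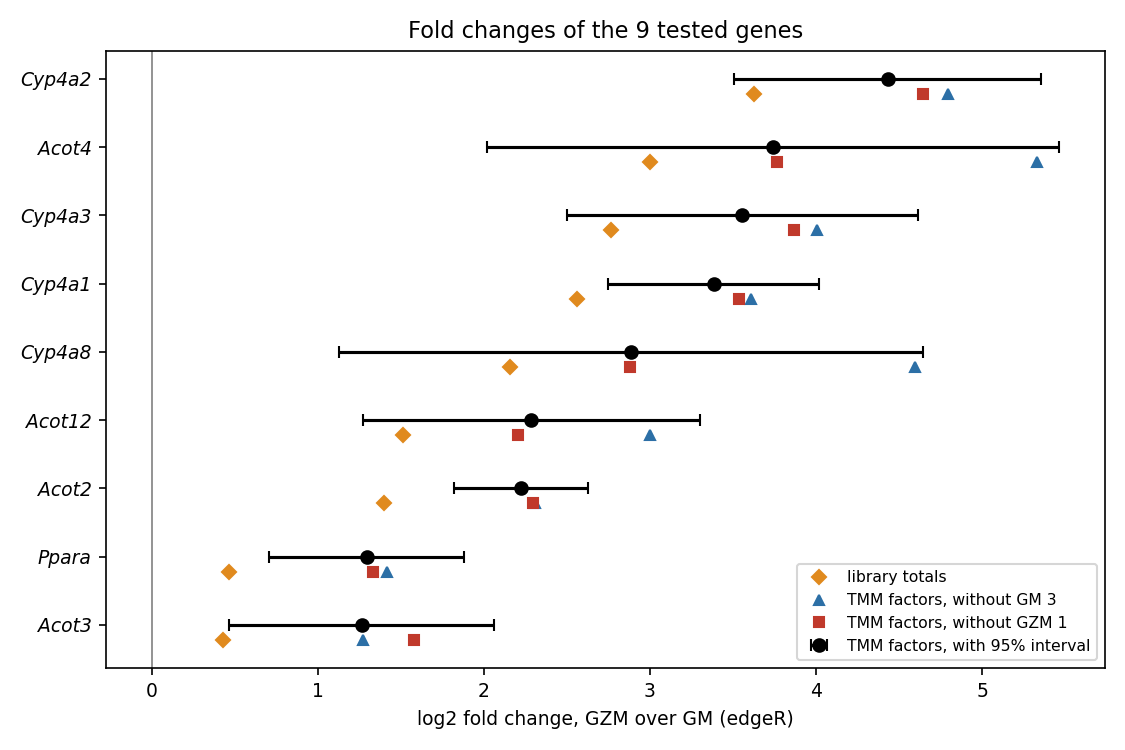
Log2 fold changes, GZM over GM, of the 9 tested genes from edgeR with TMM factors (black, with 95% interval), with library totals (orange diamonds), without GM 3 (blue triangles) and without GZM 1 (red squares). Every value is above 0, library totals lower each one, and leaving out GM 3 moves Acot4 to 5.33 and Cyp4a8 to 4.60.

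The thioesterases rose less evenly. Acot2, the mitochondrial form, had 27.3, 29.5 and 32.7 CPM in GZM 1, 2 and 3, against 6.08, 6.30 and 6.73 CPM in GM 1, 2 and 3. Its GM libraries varied by only 5.26% (coefficient of variation), and the 4.68-fold rise carried the smallest adjusted p of the 9 genes (log2 fold change 2.23 ± 0.17 SE, 95% interval 1.82 to 2.63, edgeR adjusted p = 0.00164). Acot4, in mouse a peroxisomal thioesterase of succinyl-CoA and other dicarboxylic acyl-CoAs, had 27.6, 29.1 and 27.6 CPM in GZM 1, 2 and 3, against 1.06, 0.38 and 4.94 CPM in GM 1, 2 and 3. Its GZM libraries were nearly level and its GM libraries were not, since GM 3 was 12.9 times the lowest. Acot4 rose 13.4-fold (log2 fold change 3.74 ± 0.75 SE, 95% interval 2.02 to 5.47, edgeR adjusted p = 0.0065), and its log2 fold change was 5.33 without GM 3.

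Acot12, which in rat liver hydrolyses acetyl-CoA in the cytosol, had 145.6, 129.3 and 116.3 CPM in GZM 1, 2 and 3, against 21.1, 12.4 and 46.8 CPM in GM 1, 2 and 3. GM 3 was again the highest control. Acot12 rose 4.88-fold (log2 fold change 2.29 ± 0.44 SE, 95% interval 1.27 to 3.30, edgeR adjusted p = 0.00581), or 3.00 on the log2 scale without GM 3. Acot3, in mouse a peroxisomal long-chain thioesterase, had 6.72, 15.9 and 15.9 CPM in GZM 1, 2 and 3, against 5.06, 5.87 and 5.09 CPM in GM 1, 2 and 3. GZM 1 lay close to the controls, while the other GZM libraries did not. The 2.40-fold rise (log2 fold change 1.27 ± 0.35 SE, 95% interval 0.47 to 2.06, edgeR adjusted p = 0.0205) is the least firm of the 9. Its edgeR adjusted p was 0.0832 without GZM 2, 0.0752 without GZM 3, 0.0681 without GM 1 and 0.315 with library totals.

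Acot1, the cytosolic long-chain form that peroxisome proliferators raise in rat liver, was near the detection limit. It was read 9, 5 and 3 times in GZM 1, 2 and 3 and 5, 1 and 0 times in GM 1, 2 and 3, so the groups overlapped in counts. Without the filter its log2 fold change was 2.37 ± 1.03 SE (unadjusted p = 0.0411, edgeR adjusted p = 0.111), which did not pass. Just beyond these genes on chromosome 6, Acot5, a peroxisomal form in mouse, had 41.6, 37.0 and 29.9 CPM in GZM 1, 2 and 3, against 2.31, 0.98 and 13.5 CPM in GM 1, 2 and 3, with GM 3 again the highest control (log2 fold change 2.70 ± 0.81 SE, edgeR adjusted p = 0.0288). Its call was lost without GZM 1, GZM 2, GZM 3 or GM 1 (edgeR adjusted p from 0.0543 to 0.0891), and its log2 fold change was 4.50 without GM 3. Acot6, next in the row and named only for its place there, was read 0 to 4 times in the GZM libraries and 1 to 5 times in the GM libraries and was not tested.

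Levels of different genes can be compared only per length, and the deposited FPKM values, scaled to library totals, gave this order. In GZM the mean FPKM was 484.1 for Cyp4a2, 201.8 for Cyp4a3, 48.3 for Cyp4a1 and 21.2 for Acot12. These 4 did not overlap from one gene to the next. Acot2 (9.43 FPKM), Cyp4a8 (8.34), Acot4 (8.15) and Acot3 (7.48) followed, and each of these overlapped its neighbour in the order over the GZM libraries. Ppara (2.31 FPKM) and Acot1 (0.187) came last, without overlap. In GM the order was Cyp4a2 (39.1 FPKM), Cyp4a3 (29.7), Cyp4a1 (8.17), Acot12 (7.41), Acot3 (5.55), Acot2 (3.58), Cyp4a8 (1.86), Ppara (1.67), Acot4 (1.01) and Acot1 (0.0633). Gaps free of overlap in GM were those between Cyp4a3 and Cyp4a1, between Acot3 and Acot2, and between Acot4 and Acot1.

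The make-up of the 4 Cyp4a genes and of the 5 chosen Acot genes differed between the groups, a measure that does not depend on scaling between libraries. Acot5 and other Acot genes were not part of the Acot sum. Cyp4a2 made up 68.5%, 65.1% and 63.5% of the summed Cyp4a FPKM in GZM 1, 2 and 3, against 50.2%, 51.7% and 48.1% in GM 1, 2 and 3. The lowest GZM share exceeded the highest GM share. Cyp4a3 took 26.4% ± 3.96 (SD) in GZM and 37.3% ± 1.55 in GM, and Cyp4a1 took 6.69% ± 0.968 in GZM and 10.6% ± 1.59 in GM, each over 3 libraries and also without overlap. Cyp4a8 took 1.74%, 0.975% and 0.927% in GZM 1, 2 and 3, against 1.07%, 0.919% and 4.12% in GM 1, 2 and 3, which overlapped. Of the summed FPKM of the 5 thioesterases, Acot4 held 17.6% ± 0.377 in GZM and 5.07% ± 4.53 in GM, without overlap. Acot3 held 8.76%, 19.2% and 19.8% in GZM 1, 2 and 3, against 33.9%, 45.2% and 20.9% in GM 1, 2 and 3, again without overlap. The shares of Acot12 and Acot2 overlapped between the groups. These shares were not tested.

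**Figure D3:**
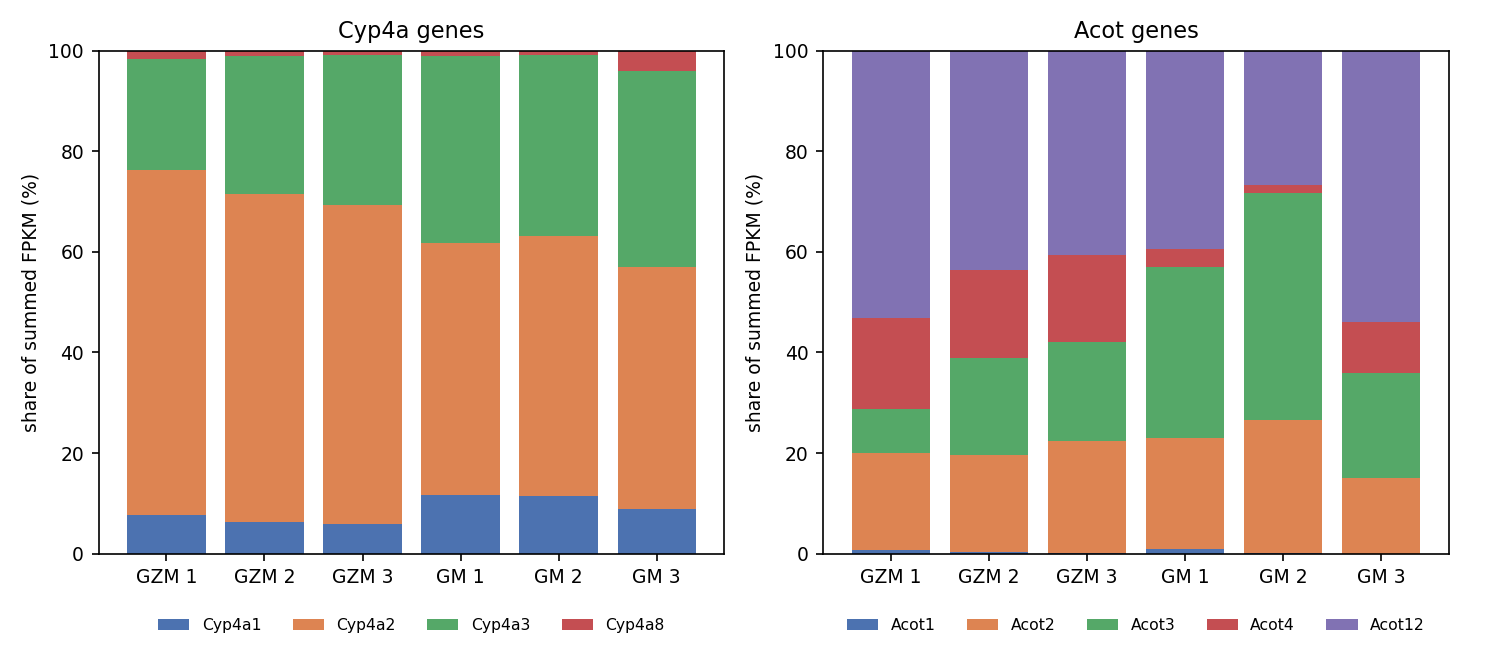
Stacked bars give the share of each gene, in percent, in the summed FPKM of the 4 Cyp4a genes (left) and of the 5 Acot genes (right) in each library. The Cyp4a2 share runs from 63.5% to 68.5% in GZM and from 48.1% to 51.7% in GM.

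Most other PPARA targets were higher in GZM too. Counts of this and each further list stand beside 22.2% of all 14298 tested genes called higher and 21.7% called lower. With library totals 1315 of the tested genes were called higher and 8513 lower. Of 28 genes listed as further PPARA targets, 26 were tested, 24 were higher in GZM and 0 lower, with a median log2 fold change of 2.04, or 1.24 with library totals. Cpt2, which completes entry of long-chain fatty acids into mitochondria, rose by 2.37 on the log2 scale, and the acyl-CoA dehydrogenase genes Acadm and Acadl by 2.47 and 1.79 (edgeR adjusted p = 0.00185, 0.00204 and 0.00192). Decr1, needed to burn unsaturated chains, rose by 2.24, and the mitochondrial thiolase gene Acaa2 by 2.61 (edgeR adjusted p = 0.00215 and 0.00227). The exceptions, named after their values were seen, were Angptl4, an inhibitor of lipoprotein lipase (log2 fold change 0.92 ± 0.34 SE, edgeR adjusted p = 0.06), and the lipid droplet gene Plin2 (0.16 ± 0.31, edgeR adjusted p = 0.692). Angptl4 did not overlap between the groups and passed as higher with DESeq2 (adjusted p = 0.0385), with no filter (edgeR adjusted p = 0.0463), with the replicate block (edgeR adjusted p = 0.0476) and without GM 3 (1.41, edgeR adjusted p = 0.00283). Plin2 passed only without both GZM 1 and GM 3 (0.77, edgeR adjusted p = 0.0129). With library totals Angptl4 stood at only 0.13 (edgeR adjusted p = 0.7) and Plin2 at -0.63 (edgeR adjusted p = 0.0664). On that scale 20 of the 26 passed as higher and 0 as lower.

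The receptor's partners and relatives did not move as a group. Of 7 tested, Rxra, the usual partner of PPARA, was higher by 1.14 (edgeR adjusted p = 0.0187), and Pparg, the adipose relative of PPARA, was lower by 2.07 (log2 fold change -2.07, edgeR adjusted p = 0.00474). Rxra lost its call without GZM 1 (edgeR adjusted p = 0.0545), without GM 1 (edgeR adjusted p = 0.0624) and with library totals (edgeR adjusted p = 0.304). The coactivator gene Ncoa1 (0.25), the relative Ppard (0.22) and the corepressor gene Ncor1 (-0.23) did not pass. With library totals 5 of the 7 passed as lower, among them these 3, and the list median turned from 0.22 to -0.61.

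Genes that serve or follow omega-hydroxylation were higher. All 10 tested of 12 passed as higher, with a median of 1.73. The peroxisomal transporter gene Abcd3 rose by 1.67 and Aldh3a2, which oxidizes fatty aldehydes, by 2.12 on the log2 scale (edgeR adjusted p = 0.00192 and 0.00215). The reductase gene Cyb5r3 rose by 1.39 and Adh5 by 1.59 (edgeR adjusted p = 0.00213 and 0.00246). Por, the electron donor of all microsomal P450 enzymes and named after its values were seen, was at 112.2, 165.7 and 162.1 CPM in GZM 1, 2 and 3, against 80.0, 92.4 and 94.4 CPM in GM 1, 2 and 3. Its log2 fold change of 0.72 (edgeR adjusted p = 0.0204) turned to -0.11 with library totals (edgeR adjusted p = 0.658), and its call was lost without GZM 2, GZM 3 or GM 1 (edgeR adjusted p from 0.0748 to 0.0868). Without GM 1, 7 of the 10 genes passed, and 7 did so with library totals.

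Relatives that were not among the chosen genes, further Acot genes included, split. Of 12 other Cyp4 genes 8 were tested, 5 were higher and 0 lower (median 1.86), namely Cyp4f6 by 2.11, Cyp4f1 by 2.42, Cyp4f39 by 1.98, Cyp4v3 by 1.74 and Cyp4f4 by 2.11 on the log2 scale. Cyp4f4 lost its call without GM 1 (edgeR adjusted p = 0.0622). Without GM 3 the log2 fold changes of Cyp4f4 and Cyp4v3 were 3.00 and 2.35. Among 9 tested further thioesterase and related genes, 3 were higher: Baat, which conjugates bile acids (2.90), Acot5 (2.70) and Acot13, a mitochondrial form (1.12). Only 1 of these 3 passed without GM 1, and Baat stood at 3.64 without GM 3. Acot13 did not pass without GM 1 (edgeR adjusted p = 0.0539) or with library totals (edgeR adjusted p = 0.33). Acot9, also mitochondrial, was lower (-0.85 ± 0.13 SE, edgeR adjusted p = 0.00323), at 22.9, 22.2 and 23.7 CPM in GZM 1, 2 and 3, against 41.6, 42.8 and 39.7 CPM in GM 1, 2 and 3. Acot7, an abundant form in brain, stood at a log2 fold change of -0.73 (edgeR adjusted p = 0.0538). Its fall passed with library totals (-1.59, edgeR adjusted p = 0.00263), with no filter (edgeR adjusted p = 0.0402) and in both limma fits. The same held without GM 3 (-0.87, edgeR adjusted p = 0.0156) and without both GZM 1 and GM 3 (edgeR adjusted p = 0.0204). Of these 9 genes 2 passed as higher and 4 as lower with library totals.

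The acyl-CoA synthetases, which run the reaction opposite to that of the thioesterases, were higher in all 9 tested of 11 (median 2.20, or 1.44 with library totals). Acsm5 and Acsm2, for medium-chain acids, rose by 3.38 and 2.32, Acsm3 by 2.20, and Slc27a2 and Slc27a5, which activate very long-chain and bile acids, by 2.58 and 2.73 on the log2 scale. Acsm3 lost its call without GM 1 (edgeR adjusted p = 0.0529). GM 3 was the highest control for these 5 genes, and without it their log2 fold changes were 4.11 for Acsm5, 3.15 for Acsm2, 3.15 for Acsm3, 3.46 for Slc27a2 and 3.97 for Slc27a5. Only 4 of the 9 passed without GM 1 and 5 with library totals. With library totals Acsl3, Acsl4 and Acsl5, named after their values were seen, turned from 0.59, 0.58 and 0.61 to -0.27, -0.25 and -0.21 on the log2 scale.

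**Figure D4:**
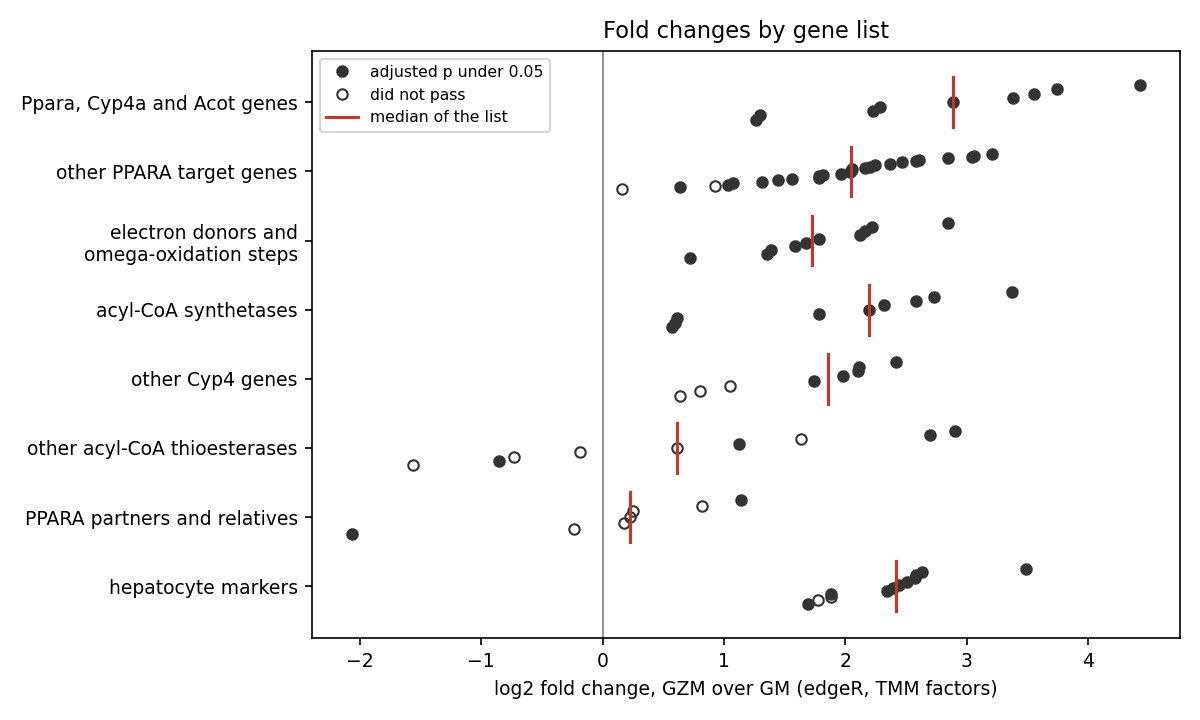
Each circle is the log2 fold change, GZM over GM (edgeR, TMM factors), of 1 gene, filled where its adjusted p was under 0.05, with the median of each list in red. The median is 2.89 for Ppara, Cyp4a and Acot genes, 2.04 for other PPARA targets and 2.42 for hepatocyte markers, and it is 0.22 for the partners and relatives of PPARA.

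Hepatocyte markers moved with these genes. Marker counts stand beside 22.2% of all tested genes called higher and 21.7% called lower, and 1 call among 6 or 7 genes lies near those shares. Of 12, 10 were higher and 0 lower (median 2.42), but 4 were called without GM 1, 12 without GM 3 and 8 with library totals, with a summed level of 138365 to 163866 CPM in GZM and 16353 to 59190 CPM in GM. In bulk tissue fewer cells of a type and less RNA per cell cannot be told apart. Cell division genes were lower in all 8 of 8 (median -2.02), at 153.5 to 173.8 CPM summed in GZM and 424.1 to 1123 CPM in GM. Of 6 macrophage markers 4 were lower and 1 higher (844.4 to 1077 CPM in GZM, 751.3 to 1699 CPM in GM), though 0 were called lower without GZM 2 or without GZM 3. Of 6 T cell markers 1 was lower (81.3 to 224.3 CPM in GZM, 237.6 to 462.1 CPM in GM), but 5 were without GZM 1 and 3 with library totals. Endothelial markers had 3 of 5 higher (292.9 to 345.3 CPM in GZM, 103.6 to 210.9 CPM in GM), though 0 with library totals and 1 without GM 1 or any one GZM library. Cholangiocyte markers had 1 of 6 higher (124.0 to 205.9 CPM in GZM, 126.5 to 284.3 CPM in GM), though 0 higher and 1 lower with library totals. In that list 2 were higher without GM 1, and 1 was lower without GM 2. Of 7 stellate and fibroblast markers 1 was higher and 1 lower (1804 to 4124 CPM in GZM, 3491 to 9583 CPM in GM). The higher call was lost without GZM 1, GZM 3 or GM 2 and the lower one without GZM 2, GZM 3 or GM 1, while 0 were higher and 6 lower with library totals. No marker of these lists was at 0 in any library, and their part in the differences of Cyp4a and Acot genes was not tested. Of 6 tested sex-linked or sex-biased genes 4 were higher, namely the male-type Cyp2c11 by 3.71 and Cyp2c13 by 2.41, the female-type Cyp2c12 by 3.03 and Ddx3y by 2.49 on the log2 scale, and the Y-linked Eif2s3y (0.44, edgeR adjusted p = 0.129) and Kdm5d (0.35, edgeR adjusted p = 0.24) did not pass.

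Each gene was then set against the mean log2 CPM of the 12 hepatocyte markers in its own library, which removes any scaling between libraries. On this measure 7 of the 10 genes overlapped between the groups, 2 were higher in all GZM libraries and 1 was lower. Among all tested genes 0.762% were higher without overlap and 88.9% lower. Cyp4a2 stood at -1.96, -0.78 and -0.83 in GZM 1, 2 and 3, against -2.87, -2.92 and -3.65 in GM 1, 2 and 3. It was thus higher in GZM by 1.96 on the log2 scale (exact permutation test, two-sided, p = 0.1, the smallest that 3 against 3 allows). Acot4 was higher by 1.79, at -7.10, -6.71 and -6.56 in GZM 1, 2 and 3, against -8.58, -9.31 and -7.83 in GM 1, 2 and 3 (exact permutation p = 0.1).

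Ppara was the gene that stood lower on this measure, by -1.24, at -9.21, -8.77 and -8.62 in GZM 1, 2 and 3, against -7.48, -6.86 and -8.54 in GM 1, 2 and 3 (exact permutation p = 0.1). GZM 3 and GM 3 were close for this gene. Cyp4a3 (1.05), Cyp4a8 (1.01) and Cyp4a1 (0.89) were higher on average but overlapped, with exact permutation p of 0.3, 0.2 and 0.3. Acot12 followed the markers most closely, with -4.71 to -4.49 in GZM, -4.68 to -4.42 in GM and a difference of -0.01. Acot2 (-0.30), Acot3 (-1.35) and the scarcely read Acot1 (-0.88) overlapped as well.

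**Figure D5:**
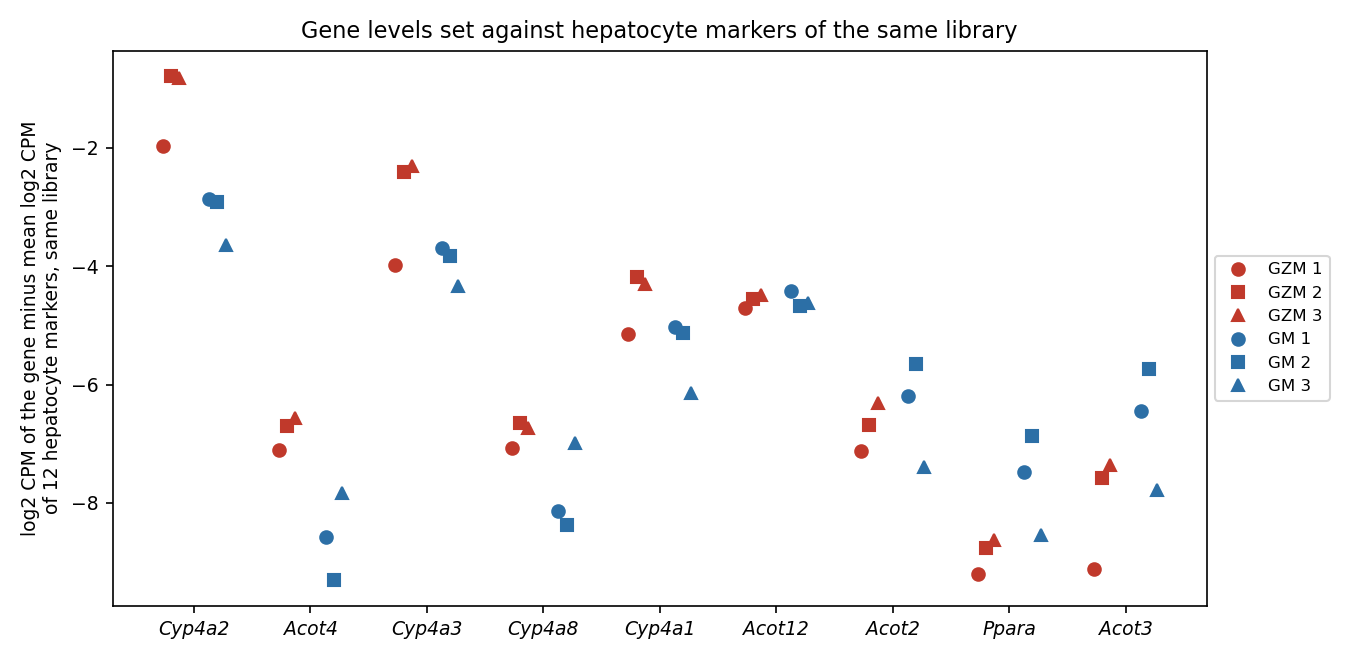
Points give log2 CPM of a gene minus the mean log2 CPM of 12 hepatocyte markers in the same library, for GZM (red, left) and GM (blue, right), with replicate number by symbol. Acot1 is left out for its low counts. Cyp4a2 and Acot4 are higher in every GZM library than in any GM library, Ppara is lower, and Acot12 lies at -4.71 to -4.42 in all 6 libraries.

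The spread within the groups differed between the genes. Ppara and Acot2 were nearly level within GM (highest over lowest 1.24 and 1.11), whereas Acot12, Cyp4a8 and Acot4 spanned 3.76, 10.5 and 12.9 times within GM, each with GM 3 on top. Cyp4a1, Cyp4a2 and Cyp4a3 spanned 1.78, 2.17 and 2.53 times within GM and 1.57, 1.82 and 2.39 times within GZM, where GZM 1 was lowest. Acot3 spanned 2.37 times within GZM and 1.16 times within GM. Of all these genes, only Acot3 did not have GM 3 as its highest control. Only Acot12 and Cyp4a8 did not have GZM 1 as their lowest GZM library. The tested genes most like Ppara in log2 CPM were Tm6sf2 (Pearson r 0.9996), Clptm1l (0.9994), Dnajb12 (0.9993), Sptssa (0.9987) and Rbfa (0.9986). That likeness is a description over 6 libraries that share the group difference, and 2616 genes reached a Pearson r above 0.9.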

How the data were processed

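Messenger RNA was measured in 6 rat liver libraries, 3 of GZM and 3 of GM, grouped and numbered by their titles. Per the file headers, the deposited table pairs read counts with FPKM in every library. The counts deposited are raw whole numbers. The authors' FPKM values are counts scaled to exon length and library total: all 195738 were recomputed to within 0.01. Another deposited column, of other kind, gives exon length in bases. GZM columns are headed ZGM and were assigned by letters and replicate number. No source used here names the read counter or its strand setting, so overlapping and antisense genes may share reads. Per the submitters' processing notes the build is mRatBN 7.2, but positions listed on chromosome 1 reach 282724300, beyond the end of that chromosome in that build. The build of the listed positions was therefore not settled.

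Counts were tested with edgeR 4.0.16 in R 4.3.3 (quasi-likelihood test, TMM factors, default low-count filter, no covariate) over all genes, with Benjamini-Hochberg adjustment at 0.05. Standard errors were derived from the log2 fold change and its quasi-F statistic. CPM was scaled with TMM factors, and log2 CPM used a prior count of 2. The steps were also run on simulated counts in which few genes changed, in balance up and down. That setting differs from these data and does not test the choice of scaling. Differences from the hepatocyte markers were tested with an exact permutation test. Alternatives were DESeq2 1.42.0, edgeR with library totals, with median-of-ratios factors, with other filters or with a replicate block, limma 3.58.1 on log2(FPKM + 0.1) and log2(FPKM + 0.5), and leaving out each library. Leaving out GZM 1 and GM 3 together was added after seeing the data. The genes described and the further lists were chosen with earlier results of these data known. From each further list of fatty acid genes up to 5 genes of smallest p are named, and any other gene of these lists is named with the reason. Of the short sex gene list all tested genes are named. A gene that the rule would also name is not reported here. Promoter sequences came from RefSeq (GRCr8). Figures were drawn with matplotlib 3.10.9.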

Additional observations from a re-analysis of the deposited data

How the results depend on the processing

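Over 15 other settings, 14 of them planned, the log2 fold changes of the 9 tested genes stayed above 0, and 6 genes (Cyp4a1, Cyp4a2, Cyp4a3, Acot2, Acot4 and Acot12) passed in each. Of 135 such values 11 lost their call, all of Ppara, Acot3 or Cyp4a8; the cause was not tested. Between 7 and 9 of the genes were called higher and 0 lower in each setting. Scaling to library totals moved the count over all genes, with 9828 changed (1315 higher, 8513 lower) in edgeR, 9922 (1362 higher, 8560 lower) in limma on log2(FPKM + 0.1) and 9900 (1364 higher, 8536 lower) in limma on log2(FPKM + 0.5), against 6285 (3181 higher, 3104 lower). Limma then gave Ppara 0.45 and 0.37 (adjusted p = 0.135 and 0.119) and Acot3 0.33 and 0.31 (adjusted p = 0.43 and 0.424). Leaving out 1 library gave 3777 to 7024 changed genes (2112 to 3592 higher, 1665 to 3432 lower), the lowest without GZM 2. Deviations from the group mean correlated at -0.14, 0.16 and -0.27 between same-numbered libraries, and at -0.22 to 0.30 between differently numbered ones. With 3 libraries per group these values cannot decide whether the numbers mark pairs. With the replicate block 5166 genes changed, the 9 genes passed, and Cyp4a8 stood at 3.53. Relative to hepatocyte markers, small differences turned sign: Acot1 to 0.052 with a prior count of 0.5, Acot12 to 0.047 without GZM 1 and 0.063 without GM 1 (range on leaving out 1 library -0.067 to 0.063), and Acot2 to 0.085 without GM 2 (range -0.79 to 0.085). Acot1 had only 17 counts in GZM and 6 in GM.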
